A study of Mus musculus with 6 samples.

Results

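The histone lysine demethylase genes described here are Kdm1a, Kdm2a, Kdm2b, Kdm3a, Kdm3b, Kdm4a, Kdm4b, Kdm4c, Kdm5a and Kdm5b, taken from the deposited table by gene symbol. All 10 were found among the 16982 genes of the count table, each on a single row, and all 10 passed the filter on low counts. The RNA came from mouse embryonic fibroblasts (MEF) of C57BL/6 background 3 days into reprogramming by OCT4, SOX2, KLF4 and C-MYC from retroviruses, in 3 wild type (WT, Rnf20+/+; WT1 to WT3) and 3 Rnf20 knockout (Rnf20-/-; KO1 to KO3) cultures. The knockout cells derive from embryos with a floxed Rnf20 gene and a ubiquitously expressed, tamoxifen-inducible Cre, and 4-OH tamoxifen was used for the deletion, although the labels list all 6 cultures as untreated. Whether the WT cells carried the floxed allele or received the drug is not given in the sources used here. Infected MEF were replated on mitomycin-C-treated MEF feeder layers, whose RNA cannot be told apart from that of the reprogrammable cells.

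RNF20 is the E3 ligase that monoubiquitinates histone H2B (H2Bub), a mark that promotes methylation of H3K4 and H3K79 by their methyltransferases. Histone lysine demethylases act on the opposite side, by removing methyl groups. KDM1A is a flavin-dependent amine oxidase that acts on H3K4 with 1 or 2 methyl groups, whereas the other members belong to the JmjC family, which needs Fe(II), oxygen and 2-oxoglutarate. KDM2A and KDM2B act mainly on H3K36, KDM3A and KDM3B on H3K9, KDM4A to KDM4C on H3K9 and H3K36, and KDM5A and KDM5B on H3K4. In reprogramming, demethylases of H3K9 and H3K36 are known as factors that can ease the path to pluripotency. The question taken to the data was whether the transcripts of these enzymes changed when Rnf20 was deleted.

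KDM2A and KDM2B carry a CXXC zinc finger that binds unmethylated CG pairs, so promoter sequences are shown with each CG pair in capitals. Promoters of 6 of the 10 genes were read from the RefSeq table of GRCm38.p6, with 12 transcription start sites in all. Those of Kdm2a, Kdm3b, Kdm4b and Kdm5a were not read, so the member counts below cover these 6 genes only. The 250 bases before the start are printed for Kdm2b, the only member that passed the test with all libraries, at an outer start on chromosome 5 (chr5:122989100-122989349, minus strand) and at an inner start (chr5:122900368-122900617, minus strand). Kdm1a, the member with the highest level per length, is printed beside them (chr4:136602724-136602973, minus strand).
Kdm2b outer start: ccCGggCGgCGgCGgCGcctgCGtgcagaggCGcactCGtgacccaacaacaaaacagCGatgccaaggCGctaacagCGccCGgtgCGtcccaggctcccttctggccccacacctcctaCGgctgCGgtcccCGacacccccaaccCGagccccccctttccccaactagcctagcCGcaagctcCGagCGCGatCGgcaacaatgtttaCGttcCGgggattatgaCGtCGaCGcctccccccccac
Kdm2b inner start: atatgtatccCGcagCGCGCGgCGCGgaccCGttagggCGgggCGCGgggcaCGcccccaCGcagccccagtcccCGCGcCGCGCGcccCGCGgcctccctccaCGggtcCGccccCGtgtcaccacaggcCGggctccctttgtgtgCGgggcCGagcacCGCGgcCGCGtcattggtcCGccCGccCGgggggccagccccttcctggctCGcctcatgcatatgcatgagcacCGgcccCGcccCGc
Kdm1a: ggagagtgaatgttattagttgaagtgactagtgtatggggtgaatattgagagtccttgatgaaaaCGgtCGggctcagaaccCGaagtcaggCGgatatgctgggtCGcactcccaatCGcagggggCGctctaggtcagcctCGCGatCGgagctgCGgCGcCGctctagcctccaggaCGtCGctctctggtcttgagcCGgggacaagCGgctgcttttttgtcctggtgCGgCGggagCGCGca
The printed outer start of Kdm2b had 27 CG pairs in this window, the printed inner start 36 and Kdm1a 21. Kdm2b also had starts that are not printed, with 12 CG pairs at chr5:122988508-122988757 and 38 at chr5:122900351-122900600. Over the 32851 promoters read in all, the median was 6. Of the 12 member starts read, 10 lay above that median, and 2 (the inner start of Kdm3a and the outer start of Kdm4c) had 0 CG pairs. The motif ACGTG, the core that hypoxia-inducible factors recognise, was searched on both strands and occurred before a start of 2 members, Kdm5b and Kdm4c, and in 16.6% of all promoters. In Kdm4c it lies within the longer motif CACGTG, which MYC recognises and which 6.02% of all promoters hold. The motif CCAAT occurred before 5 starts of 4 members and in 33.8% of all promoters, and GGGCGG before 6 starts of 3 members and in 32.7%, again on either strand. A gene count adds up transcripts from all starts, so the outer and inner starts of Kdm2b were not measured separately.

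The libraries held 20545442 to 21746898 counts, and 3 counts in a library equal about 0.142 to 0.143 CPM (counts scaled by TMM-normalized library size). These limits cover counting error only. Rnf20 had 107, 107 and 106 CPM in the WT libraries and 18.7, 18.5 and 16.4 CPM in the knockout libraries (log2 fold change -2.57), so each library fitted its label. Fibroblast markers were abundant in every library (10 of 10 detected, summed level 21634 to 39856 CPM), whereas the pluripotent cell markers (6 of 8 in the table) summed to 1.14 to 5.17 CPM and their defining gene Nanog to at most 2.23 CPM. KO3 stood apart from the other knockout libraries. The mean chi-square per gene between it and the others was 92.4 and 101, against 6.04 to 8.92 between any other pair of one genotype. The summed level of 15 proliferation genes was 1967 to 2012 CPM in WT, 874 and 765 in KO1 and KO2 and 325 in KO3. The macrophage markers (8 of 8 detected) summed to 51.1 to 108 CPM in the other libraries and 245 in KO3. Lyz2 alone gave 159 CPM of the KO3 sum, and the list did not move as a whole. Adgre1, Cd14, Csf1r, Fcgr1 and Ptprc were also highest in KO3. Cd68 lay within the WT range there (8.57 CPM), and Mrc1 was lowest in KO3 (1.91 CPM). The epithelial markers (5 of 5 detected) summed to 41.4 to 43.1 CPM in WT, 33.8 and 23.8 in KO1 and KO2 and 3.38 in KO3, and their defining gene Epcam was at most 1.19 CPM in any library. The part of these differences in the results was not tested. The members' fold changes and the counts of called genes are also given without KO3.

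The members covered a wide range of levels per transcript length, and their order was nearly the same in both genotypes. In WT cells Kdm1a was the highest, with 46.8 ± 0.896 FPKM (fragments scaled by transcript length and library size, as deposited; mean ± SD, n = 3). Kdm4a with 30.4 ± 1.04, Kdm2a with 29.98 ± 0.994 and Kdm5b with 26.1 ± 0.513 FPKM followed. The other members lay lower, at 14.3 ± 0.0691 for Kdm3b, 14.04 ± 0.553 for Kdm3a, 12.8 ± 0.385 for Kdm2b, 12.5 ± 0.946 for Kdm5a, 10.4 ± 1.18 for Kdm4b and 9.79 ± 0.667 FPKM for Kdm4c. The WT libraries overlapped between the neighbours Kdm4a and Kdm2a, Kdm3b and Kdm3a, Kdm2b and Kdm5a, and Kdm4b and Kdm4c, and were separate between the other neighbours. In knockout cells Kdm2b moved from rank 7 to rank 9 by the mean FPKM, and the first 4 ranks were held by the same genes in the same order.

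**Figure D1:**
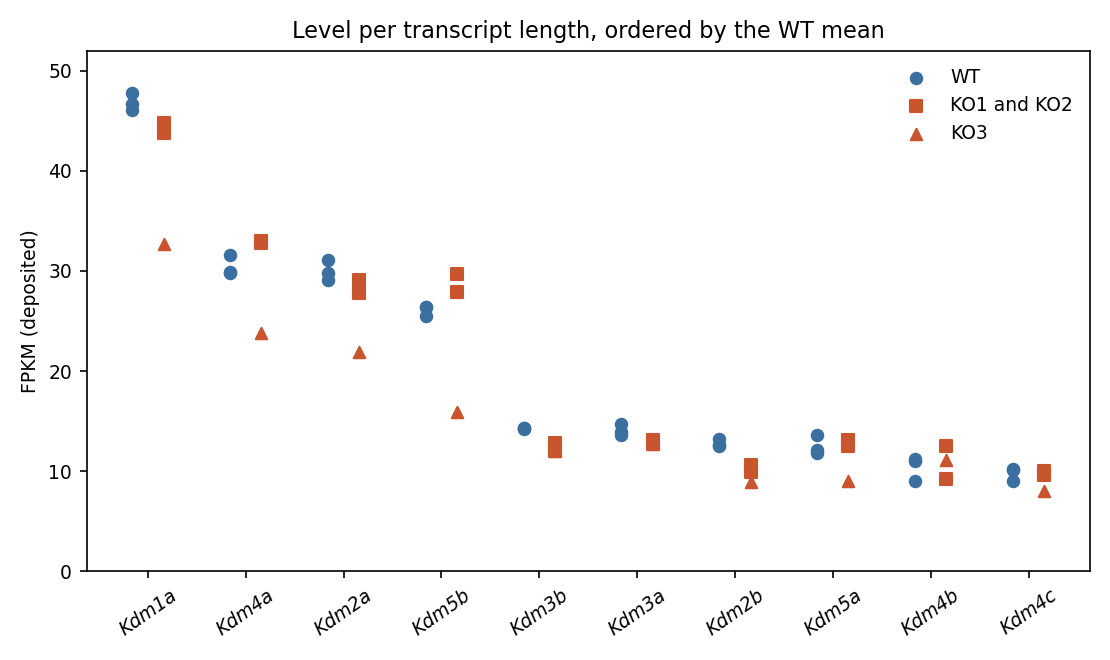
Deposited FPKM of each member (y axis) in the 3 WT libraries (circles), KO1 and KO2 (squares) and KO3 (triangles), ordered by the WT mean. Kdm1a is highest in every library, and in Kdm5b KO3 lies at 15.95 FPKM against 27.9 and 29.7 in the other knockout libraries.

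Between 3 knockout and 3 WT libraries, 1 of the 10 members was lower at an adjusted p under 0.05 by edgeR quasi-likelihood, against 16.6% of the 13386 genes tested. No member was higher (0 of 10), against 16.4% of all genes. At an unadjusted p under 0.05 in the same test, 2 members were lower (Kdm2b and Kdm3b) and 0 higher. Of all 13386 genes, 6100 passed this unadjusted limit in either direction. DESeq2, edgeR's exact test and limma on FPKM each also called 1 member lower and 0 higher. Genes called in either direction were 5016 of 15304 by DESeq2 and 4430 of 13386 by the exact test. Limma on FPKM with a pseudocount of 1 called 3644 of 12633. The study's own thresholds (adjusted p under 0.01, more than a 2-fold change and an FPKM over 1) were applied to the edgeR quasi-likelihood results, not to the authors' comparison. The FPKM used was the higher of the genotype means. By this rule 0 of the 10 members passed, whereas 3.59% of all genes did. The log2 fold changes of the members lay between -0.41 and -0.039, with a median of -0.10, beside a median of -0.00032 over all genes. All 10 were negative, but the sign of 4 of them depended on KO3. For 5 members the knockout libraries lay below all WT libraries, as they did for 28.2% of all genes. In a bulk sample, fewer cells of a type and less RNA per cell cannot be told apart.

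**Figure D2:**
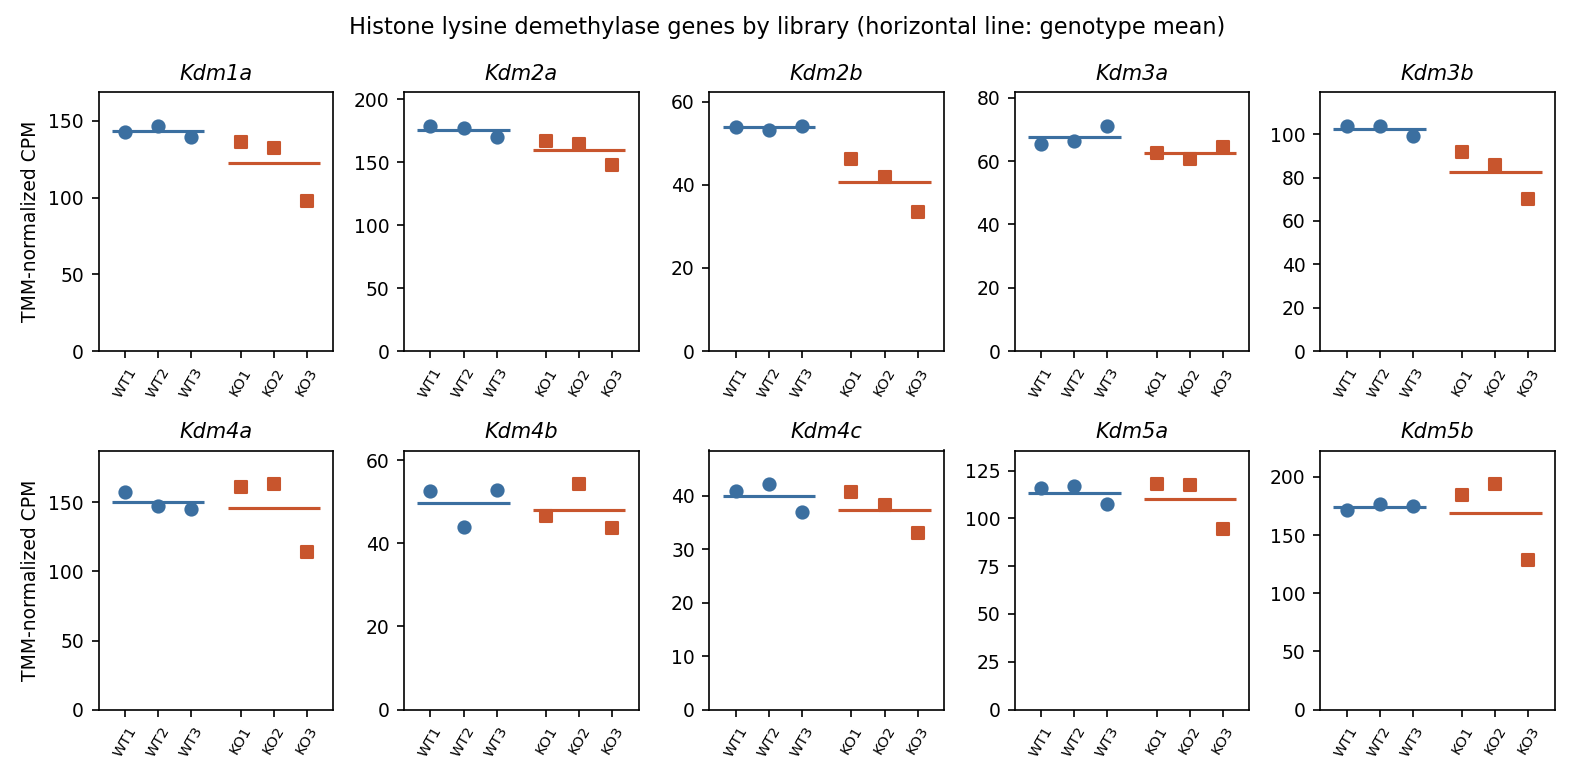
TMM-normalized CPM (y axis, from 0) of the 10 genes in each of the 6 libraries (x axis), with WT as circles, knockout as squares and the genotype mean as a line. In Kdm2b the knockout libraries lie at 33.5 to 46.2 CPM, below the WT libraries at 53.2 to 54.2, while in Kdm5b KO1 and KO2 lie above the WT libraries and KO3 lies below them.

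Kdm2b fell the most. It encodes the H3K36 demethylase that brings a variant Polycomb repressive complex to CG-rich promoters. It lies on the minus strand of chromosome 5 of GRCm38 (122870665 to 122989823). Its CPM was 54.0, 53.2 and 54.2 in WT1 to WT3 and 46.2, 42.0 and 33.5 in KO1 to KO3. The knockout libraries were lower than every WT library, at 75.4% of the WT mean. The log2 fold change was -0.41 (standard error 0.122, 95% interval -0.70 to -0.12, adjusted p = 0.0424 by the edgeR quasi-likelihood method, adjusted over all genes tested). Without KO3 it was -0.29 with an adjusted p of 0.00581 in the same test. The call was lost without WT1, WT2 or WT3 (adjusted p = 0.115, 0.113 and 0.123 by edgeR quasi-likelihood) and without KO2 (0.0798). The log2 fold change was -0.43 to -0.40 in these fits. Calls over all genes also fell, from 4413 with all libraries to 1947, 1615 and 1396 without WT1, WT2 and WT3. Without KO2 they fell to 3254. The Kdm2b call was also lost with the replicate number as a block (adjusted p = 0.0643 by edgeR quasi-likelihood) and with a term for Y-linked transcripts. The latter fit compares only KO2 of the knockout libraries with WT, so the lost call decides nothing. Exons of the antisense gene Rnf34 cover 5.77% of the exonic bases of Kdm2b, and reads of the antisense partners were not separated here because the strand setting of the counting is not given.

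Its paralogue Kdm2a, on the minus strand of chromosome 19 (4314419 to 4398285), encodes the other H3K36 demethylase with a CXXC finger. Kdm2a had 170 to 179 CPM in the WT libraries and 148 to 167 in the knockout libraries, without overlap. Its log2 fold change was -0.13 (95% interval -0.31 to 0.040, adjusted p = 0.196 by edgeR quasi-likelihood) and -0.080 without KO3. The ratio of Kdm2b to Kdm2a counts within a library, which is free of the scaling between libraries, was 0.301, 0.301 and 0.319 in WT and 0.277, 0.255 and 0.226 in KO1 to KO3. This is a difference of -0.28 on the log2 scale, or -0.21 without KO3, with all knockout libraries below all WT libraries. By the ratio of FPKM the difference was -0.18 with all libraries. The exact permutation test gave p = 0.1, the smallest that 3 against 3 libraries allow (2-sided, 0.5 after adjustment over 5 pairs).

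Kdm3b was the nearest to a call after Kdm2b. It encodes an H3K9 demethylase and lies on the plus strand of chromosome 18 (34777047 to 34838660). Its CPM was 104, 104 and 99.0 in WT1 to WT3 and 91.6, 85.9 and 70.1 in KO1 to KO3. All knockout libraries were below all WT libraries, with KO3 the lowest. The log2 fold change was -0.31 (standard error 0.108, 95% interval -0.56 to -0.052, adjusted p = 0.0671 by edgeR quasi-likelihood). Without KO3 it was -0.20 with an adjusted p of 0.0174, and without KO1 it was -0.38 with 0.0490, in the same test. Limma on FPKM with a pseudocount of 1 gave -0.20 with all libraries (adjusted p = 0.0911). Exons of Gm26538, a non-coding gene on the opposite strand, cover 24.6% of the exonic bases of Kdm3b.

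Kdm3a, on the minus strand of chromosome 6 (71588972 to 71632990), encodes the second H3K9 demethylase of the family and is known to be induced by hypoxia. Its CPM was 65.3, 66.3 and 71.2 in WT1 to WT3 and 62.7, 60.7 and 64.4 in KO1 to KO3. All knockout libraries were below all WT libraries. By CPM it was the only member in which KO3 was the highest of the knockout libraries. By FPKM KO1 was the highest, with 13.1 against 12.7 in KO2 and 12.7 in KO3. The log2 fold change was -0.11 (95% interval -0.28 to 0.057, adjusted p = 0.259 by edgeR quasi-likelihood) and -0.13 without KO3. The ratio of Kdm3a to Kdm3b counts was 0.629, 0.638 and 0.719 in WT and 0.685, 0.706 and 0.919 in knockout libraries, with overlap (exact permutation p = 0.3). The difference was 0.21 on the log2 scale and 0.073 without KO3, and 0.087 by the ratio of FPKM with all libraries.

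Kdm1a, which encodes LSD1, the H3K4 demethylase of the CoREST complex, lies on the minus strand of chromosome 4 (136550540 to 136602723). Its CPM was 143, 147 and 140 in WT1 to WT3 against 136, 132 and 97.7 in KO1 to KO3. All knockout libraries were below the WT libraries, KO1 and KO2 narrowly and KO3 by far. The log2 fold change was -0.23 (standard error 0.130, 95% interval -0.54 to 0.083, adjusted p = 0.216 by edgeR quasi-likelihood). Without KO3 it was -0.088 (95% interval -0.21 to 0.031, adjusted p = 0.201), and KO3 moved this value by over 1.5 times.

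The KDM5 genes encode demethylases that remove H3K4 trimethylation from promoters. Kdm5b, on the plus strand of chromosome 1 (134560171 to 134635285), had 172, 176 and 175 CPM in WT1 to WT3 against 184, 194 and 129 in KO1 to KO3. KO1 and KO2 were above all WT libraries and KO3 was below all of them. The log2 fold change was -0.046 (95% interval -0.40 to 0.31, adjusted p = 0.835 by edgeR quasi-likelihood) with all libraries and 0.12 (95% interval 0.0039 to 0.23, adjusted p = 0.0823) without KO3. Kdm5a, on the plus strand of chromosome 6 (120364124 to 120444574), had 107 to 117 CPM in WT, 118 and 118 in KO1 and KO2 and 94.6 in KO3. Its log2 fold change was -0.044 (95% interval -0.29 to 0.20) with all libraries and 0.055 (-0.075 to 0.19) without KO3. The ratio of Kdm5b to Kdm5a counts was 1.48 to 1.63 in WT and 1.36 to 1.65 in knockout libraries, a difference of -0.018 on the log2 scale (exact permutation p = 1). Its sign depended on single libraries, with 0.061 without KO3, 0.024 without WT3 and -0.076 without KO2. By the ratio of FPKM the difference was -0.013 with all libraries.

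Of the KDM4 genes, whose products act on trimethylated H3K9 and H3K36, none passed the test with or without KO3. Kdm4a, on the minus strand of chromosome 4 (118136957 to 118180043), had 158, 148 and 145 CPM in WT1 to WT3 against 161, 163 and 114 in KO1 to KO3. As in Kdm5b, KO1 and KO2 were above and KO3 was below all WT libraries. Its log2 fold change was -0.039 (95% interval -0.38 to 0.30, adjusted p = 0.851 by edgeR quasi-likelihood) and 0.11 without KO3 (95% interval -0.011 to 0.24, adjusted p = 0.119). Kdm4b, on the plus strand of chromosome 17 (56326062 to 56402870), had 44.0 to 52.8 CPM in WT and 43.6 to 54.2 in knockout cells, with a log2 fold change of -0.049 (95% interval -0.32 to 0.23), or 0.019 without KO3. Kdm4c, on the plus strand of chromosome 4 (74242497 to 74405860), had 37.0 to 42.1 CPM in WT and 33.1 to 40.7 in knockout cells, with a log2 fold change of -0.099 (95% interval -0.34 to 0.15), or -0.017 without KO3. The differences of the ratios Kdm4b to Kdm4a and Kdm4c to Kdm4a were 0.0079 and -0.045 on the log2 scale (exact permutation p = 1 and 0.7). Neither sign was stable, since the first was -0.094 without KO3, -0.068 without WT2 and 0.11 without KO1, and the second was -0.13 without KO3, 0.024 without KO2 and 0.0061 without WT2. By the ratio of FPKM the differences were 0.11 and -0.045 with all libraries.

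**Figure D3:**
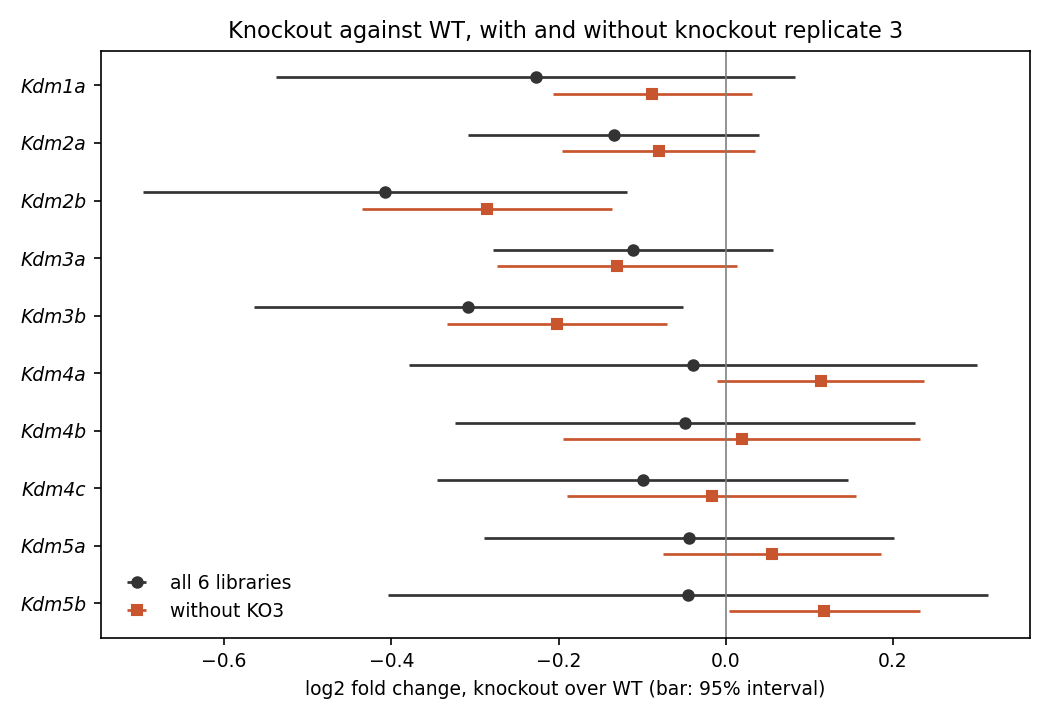
Log2 fold change of knockout over WT (x axis) for each member, with its 95% interval, from all 6 libraries (black circles) and without KO3 (orange squares). Kdm2b and Kdm3b lie below 0 in both fits, and Kdm4a, Kdm4b, Kdm5a and Kdm5b change from below to above 0 when KO3 is left out.

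Without KO3, 2 of the 10 members were lower (Kdm2b and Kdm3b), against 24.2% of the 13529 genes tested in that fit, and 0 were higher, against 23.9%. At an unadjusted p under 0.05, 2 members were lower and 1 higher, the latter being Kdm5b, beside 7382 of the 13529 genes in either direction. Of the 10 log2 fold changes 6 were negative, with a median of -0.049. The summed level of the 10 genes was 1051 to 1084 CPM in WT, 1054 and 1053 in KO1 and KO2 and 828 in KO3. Grouped by substrate, the KDM3 genes summed to 169 to 170 CPM in WT and 154, 147 and 135 in KO1 to KO3, and the KDM2 genes to 224 to 233 and 213, 207 and 182. Both groups were lower in every knockout library. The KDM1A and KDM5 genes summed to 422 to 440 CPM in WT and 439, 444 and 321 in KO1 to KO3, and the KDM4 genes to 234 to 251 against 248, 256 and 191. In these groups KO2 lay above the WT range and KO3 below it.

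In 9 of 10 members KO3 was below both other knockout libraries, as it was for 44.0% of all genes. The difference between KO3 and the mean of the others ranged from -0.55 for Kdm5b to 0.063 for Kdm3a in log2 CPM, with a median of -0.33. In this library gene level moved with gene length. The median difference was 0.17 over 2790 genes of up to 2000 bases, 0.022 over 5136 genes of 2000 to 4000 bases, -0.084 over 4376 genes of 4000 to 8000 bases and -0.29 over 1084 longer genes. All members except Kdm1a (3098 bases) are longer than 4000 bases, and the part of length in their lower level was not tested. With each library corrected for gene length, an alternative chosen after seeing the data, the log2 fold changes of Kdm2b and Kdm3b were -0.36 and -0.24 (adjusted p = 0.0277 and 0.0303 by edgeR quasi-likelihood).

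**Figure D4:**
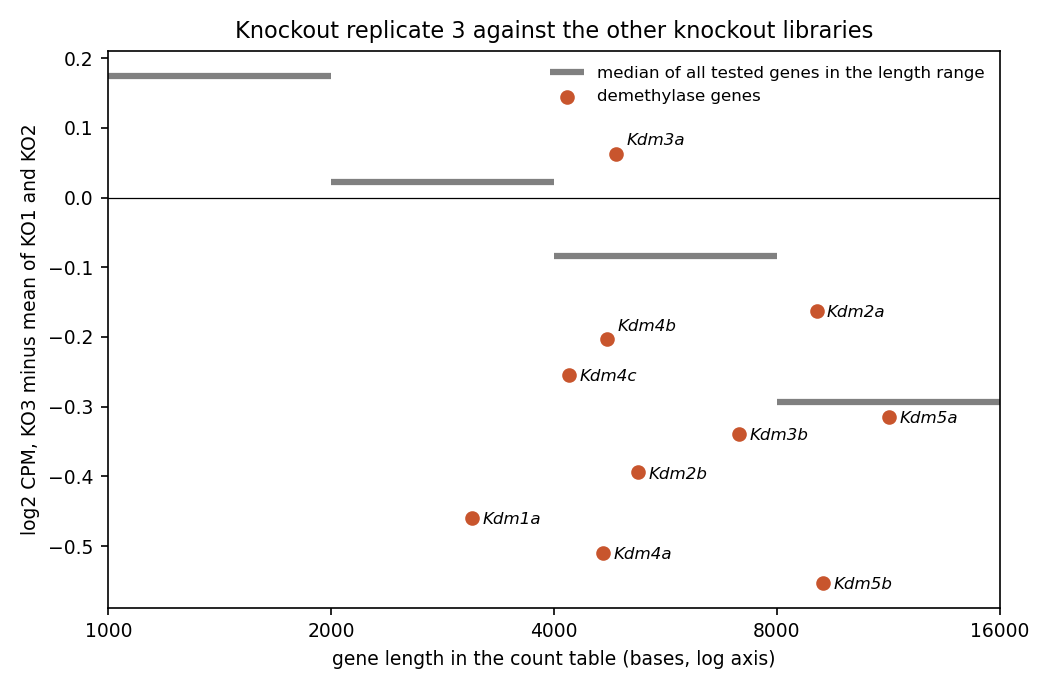
Difference in log2 CPM between KO3 and the mean of KO1 and KO2 (y axis) against gene length in bases (x axis, log scale) for the 10 members (points), with the median of all tested genes in each length range (grey bars). The grey bars fall from 0.17 to -0.29 with length, and 9 of the 10 members lie below 0.

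Other demethylase genes were described as a list of 11 autosomal genes, of which 10 were tested and Kdm4d was filtered out with at most 9 counts in a library. In this list 3 genes were lower, 0 higher and 7 not called, with a median log2 fold change of -0.44. Over all genes 16.6% were lower and 16.4% higher, with a median of -0.00032. Without KO3 6 genes of the list were lower, beside 24.2% of all genes. Of this list 1, 0 and 0 genes were called without WT1, WT2 and WT3, 1 without KO1 and 0 with the term for Y-linked transcripts. At an unadjusted p under 0.05 with all libraries 6 genes of the list passed, beside 6100 of 13386 genes. Calls over all genes fell from 4413 to 1947, 1615 and 1396 without WT1, WT2 and WT3 and to 3748 without KO1. Hr, which encodes the JmjC protein Hairless, fell from 20.54 to 25.8 CPM in WT to 3.71 to 9.88 in knockout cells (log2 fold change -1.63, standard error 0.335, adjusted p = 0.0143 by edgeR quasi-likelihood). Riox1, which encodes a nucleolar JmjC oxygenase, had a log2 fold change of -0.45 (adjusted p = 0.0235 in the same test). Without KO3 these log2 fold changes were -1.31 and -0.42. Of the knockout libraries only KO2 held Y-linked demethylase transcripts, as all WT libraries did. Kdm5d and Uty, on the Y chromosome, had 0 counts in KO1 and KO3, which allows up to 0.143 CPM, while the other libraries held 37.0 to 46.2 and 29.6 to 31.2 CPM. Kdm5c and Kdm6a, on the X chromosome, had 347 and 64.8 CPM in KO1 and 227 to 250 and 36.2 to 40.6 CPM in the others. Phf8, also X-linked, had 47.2 to 49.1 CPM in WT and 39.5 to 45.0 in knockout cells. When the fit held a term for Y-linked transcripts, no member was called (0 of 10, also 0 at an unadjusted p under 0.05 by edgeR quasi-likelihood), and 109 of 13386 genes were called in all. The log2 fold change of Kdm2b was then -0.36. In that fit the genotype difference rests on KO2 alone against the WT libraries, since no WT library lacks Y-linked transcripts. A call lost there therefore cannot tell an effect of Y-linked status from a loss of knockout libraries.

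The partners of KDM1A and KDM2B were read next, from lists of subunits known as background. Over all genes 16.6% were lower and 16.4% higher (median log2 fold change -0.00032), and without KO3 24.2% and 23.9%. Of 15 genes of CoREST-type complexes with KDM1A, 12 were tested, 5 were lower, 0 higher and 7 not called, with a median log2 fold change of -0.21, and without KO3 5 were lower and 2 higher. The count fell to 1 without WT1, WT2 or WT3 and to 0 with the term for Y-linked transcripts. At an unadjusted p under 0.05 with all libraries 5 of these partners passed, beside 6100 of 13386 genes. Calls over all genes fell from 4413 to 1947, 1615 and 1396 without WT1, WT2 and WT3. Rcor2, a scaffold of these complexes that is known from pluripotent cells, fell from 68.4 to 74.9 CPM in WT to 41.8, 39.8 and 18.8 in KO1 to KO3 (log2 fold change -1.11, standard error 0.281, adjusted p = 0.0261 by edgeR quasi-likelihood). Its paralogue Rcor3 had a log2 fold change of -0.53 (adjusted p = 0.0147). Of 9 genes of the variant Polycomb complex with KDM2B, 2 were lower, 1 higher and 6 not called, with a median of 0.067, and without KO3 2 were lower and 2 higher. Here 1, 1 and 0 were called without WT1, WT2 and WT3 and 0 with the term for Y-linked transcripts. Bcor, which encodes the corepressor of this complex, fell from 84.6 to 88.0 CPM in WT to 46.4 to 64.1 in knockout cells (log2 fold change -0.63, standard error 0.120, adjusted p = 0.0113 by edgeR quasi-likelihood). Bcorl1, its paralogue, had a log2 fold change of -0.46 (adjusted p = 0.0263), and Skp1a, which links KDM2B to the complex and also serves SCF ubiquitin ligases, rose by 0.44 (adjusted p = 0.0202). Leaving KO3 out, Rcor2, Rcor3, Bcor, Bcorl1 and Skp1a had log2 fold changes of -0.82, -0.52, -0.52, -0.34 and 0.34.

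JmjC enzymes use 2-oxoglutarate and oxygen, so genes that make or use 2-oxoglutarate and genes that respond to hypoxia were listed as well. Among all genes 16.6% were lower and 16.4% higher (median log2 fold change -0.00032), and without KO3 24.2% and 23.9%. Of 17 genes of 2-oxoglutarate metabolism, 4 were lower, 1 higher and 12 not called, with a median log2 fold change of -0.077, and without KO3 6 were lower and 3 higher. None of them was called with the term for Y-linked transcripts (0 by edgeR quasi-likelihood, 4 at an unadjusted p under 0.05). Idh2, the mitochondrial isocitrate dehydrogenase that makes 2-oxoglutarate, fell from 219 to 248 CPM in WT to 120, 117 and 69.5 in KO1 to KO3 (log2 fold change -1.19, standard error 0.204, adjusted p = 0.00864 by edgeR quasi-likelihood). Glud1, glutamate dehydrogenase, rose by 0.51 on the log2 scale (adjusted p = 0.00740 in the same test). Of 12 hypoxia response genes, 1 was lower, 3 higher and 8 not called, with a median of 0.33, and without KO3 3 were lower and 5 higher, with a median of 0.063. Without WT2 or WT3 1 was called, and 0 with the term for Y-linked transcripts. Ndrg1, a stress-responsive gene of this list, rose from 20.6 to 21.9 CPM in WT to 48.4 to 78.1 in knockout cells (log2 fold change 1.53, standard error 0.173, adjusted p = 0.00349 by edgeR quasi-likelihood). P4ha1, a subunit of the collagen prolyl hydroxylase, rose by 0.53 (adjusted p = 0.0172) and Car9, a carbonic anhydrase, fell by 1.87 (adjusted p = 0.0144). Leaving KO3 out, the log2 fold changes of Idh2, Glud1, Ndrg1, P4ha1 and Car9 were -0.97, 0.45, 1.34, 0.42 and -1.67. The list summed to 1776 to 1951 CPM in WT, 2032 and 2011 in KO1 and KO2 and 3107 in KO3. Kdm3a, described above, had 60.7 to 64.4 CPM in the same knockout libraries, against 65.3 to 71.2 in WT.

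The genes whose log2 CPM, centred over the 6 libraries, lay nearest to the 3 members with the smallest p were Odf2, Smarcal1 and Ankrd28 for Kdm2b (root mean square difference 0.020 to 0.031), Rnf168, Taf1d and Gpkow for Kdm3b (0.016 to 0.024) and Zmynd11, Zfp26 and Slc38a2 for Kdm2a (0.017 to 0.020).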

How the data were processed

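RNA from 3 WT and 3 Rnf20 knockout cultures was measured by paired-end, strand-specific sequencing of poly(A) RNA. The authors aligned reads to GRCm38/mm10 with HISAT2 2.1.0 and deposited raw counts per gene without normalization. The counting program and its strand setting are not given in the sources used here. The authors deposited FPKM values from Cufflinks 2.1.1 for 12633 genes, including all 10 members, beside a second, identical copy of the counts. Their table also holds a log2 fold change and an adjusted p-value for each gene from the authors' own comparison, which were not used. Gene lengths in bases, another deposited column, served for the length ranges. Of the rows, 425 carry no Ensembl identifier.

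Groups and replicate numbers came from the sample titles, and nothing in the labels says that replicates came from separate embryos, so p-values measure the spread between these cultures. R 4.3.3 and edgeR 4.0.16 were used with TMM factors, filterByExpr and the quasi-likelihood test without covariates, which left 13386 genes. Benjamini-Hochberg adjustment ran over all genes tested, with calls at an adjusted p under 0.05. Standard errors were taken from the size of the log2 fold change over the root of F, and 95% intervals use the moderated degrees of freedom. A pseudocount of 2 counts was used for log2 CPM. Ratios of paralogues were compared by an exact permutation test, 2-sided. The alternatives were RLE factors, library size only, DESeq2 1.42.0 and edgeR's exact test, no filter, stricter thresholds, limma 3.58.1 on log2(FPKM + 1) and log2(FPKM + 0.1), the replicate number as a block, a term for Y-linked transcripts, a loess length correction (span 0.5, added later), and each library left out. In simulated counts for the comparison of knockout with WT (13297 genes tested), the test called 100% of 200 genes given a log2 change of 2. It also called 10 unchanged genes. The simulation used a common dispersion, no outlying library and a change larger than that of any member, so power for the members was not measured.

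The members and lists were chosen with earlier results of these data known. The genes named are the 10 members, Rnf20, of each list up to 2 called genes with the largest change in each direction, every sex-linked demethylase, and the 3 nearest genes of 3 members. A gene that this rule names is not reported here. Kdm4d, the single macrophage markers and genes that overlap members were named after their values were seen. Positions are from GENCODE M21 (GRCm38). Between 20545442 and 21746898 counts per library were available. How reads shared by near-identical paralogues were counted is not given in the sources used here.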

Additional observations from a re-analysis of the deposited data

How the results depend on the processing

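Leaving out 1 library at a time, the number of members called lower ranged from 0 to 2 and the number called higher was 0 in every fit. The counts of called genes ranged from 0 to 6 for the other autosomal demethylases, 1 to 7 for the KDM1A partners, 0 to 4 for the KDM2B partners, 4 to 9 for 2-oxoglutarate metabolism and 1 to 8 for hypoxia response, and the log2 fold change of Rnf20 from -2.60 to -2.51. The highest count of each list came without KO3 and the lowest without at least 1 of the WT libraries. Of the members 2 were called lower without KO1 or KO3 and 0 without any other library. Over all genes 1947, 1615 and 1396 were called without WT1, WT2 and WT3 and 6510 without KO3. At an adjusted p under 0.01 by edgeR quasi-likelihood, 0 members were called lower, with 0 other demethylases, 0 KDM1A partners and 0 KDM2B partners. At that limit 4 genes of 2-oxoglutarate metabolism and 1 of hypoxia response were called. By the study's thresholds these 6 counts were 0, 0, 0, 0, 1 and 1. At an unadjusted p under 0.05 in the same test they were 2, 6, 5, 5, 9 and 4. Of all 13386 genes, 1322 passed at 0.01, 3.59% by the study's thresholds and 6100 at the unadjusted limit. With the term for Y-linked transcripts all 6 counts were 0 (0, 1, 3, 1, 4 and 4 at an unadjusted p under 0.05). With library size only there were 2 members called lower (Kdm2b and Kdm3b) and 5 other demethylases, as with the length correction (2 and 5). Limma on FPKM called 3 KDM1A partners in each of its 3 forms. Apart from the replicate block, described next, the remaining alternatives moved no count by over 1.5 times.

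Same-numbered libraries did not deviate together (correlations -0.066, 0.037 and 0.011 for replicates 1 to 3), so the numbers were not taken to pair them. With the replicate block 0 members were called (Kdm2b -0.42, adjusted p = 0.0643 by edgeR quasi-likelihood), and 2875 genes in all against 4413 without it. At an unadjusted p under 0.05 in this fit 2 members were lower and 0 higher, beside 5552 of 13386 genes in either direction.

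The sign of 4 members changed in some fits, and with 1 library left out ranged from -0.12 to 0.11 for Kdm4a, -0.14 to 0.019 for Kdm4b, -0.091 to 0.055 for Kdm5a and -0.15 to 0.12 for Kdm5b. Without knockout replicate 3 the log2 fold change was 0.11 for Kdm4a, 0.019 for Kdm4b, 0.055 for Kdm5a and 0.12 for Kdm5b, and with the term for Y-linked transcripts 0.12, 0.12, 0.052 and 0.15. With the length correction Kdm5a was at 0.035 and Kdm5b at 0.018, and Kdm4b was at 0.064, 0.069 and 0.064 in limma on FPKM with a pseudocount of 1, of 0.1, and with FPKM over 1 only. The other 6 members were negative in all 17 alternatives, and the adjusted p of Kdm2b ranged from 0.00581 to 0.300. The causes were not tested. Library size only moved the median of all genes to -0.060.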
